A study of Mesocricetus auratus with 14 samples.

Results

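The genes described here encode 10 plasma proteins that the liver releases in the acute phase response: Hp (haptoglobin), Hpx (hemopexin), Orm1 (an alpha-1-acid glycoprotein), Lbp (lipopolysaccharide-binding protein), Itih3 and Itih4 (heavy chains of the inter-alpha-trypsin inhibitor family), Crp (C-reactive protein), Apcs (serum amyloid P component), Saa4 (a serum amyloid A) and Lcn2 (lipocalin 2). They form a list of names that no measured value selects, drawn up with earlier results of these data known, and were looked up by symbol in the authors' table of 10023 genes. Of the 10, 7 had a row under their symbol, and all 7 passed the filter on low counts that left 12166 genes for testing. Orm1, Saa4 and Lcn2 were not analysed here.

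In the acute phase response, cytokines released at a site of injury or infection, chiefly interleukin-6, interleukin-1 and tumour necrosis factor, reach the hepatocyte. STAT3, NF-kappaB and C/EBP factors then raise transcription of a set of secreted proteins while others, such as albumin and transthyretin, decline. The proteins serve in capture of haemoglobin and haem, recognition of microbes and damaged cells, and stabilisation of the extracellular matrix, and species differ in which of them respond most.

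The 14 liver samples came from golden hamsters (Mesocricetus auratus) on a high-fat diet, which both groups share. The control group has 7 libraries and the group given the code-named compound DC371739 the other 7. The sources used here do not give strain, age, sex, dose, route or duration. No label states that each library is a separate animal, so the p-values cover only the variation among these libraries, which may be technical. In whole liver, fewer cells of a type and less RNA per cell cannot be told apart.

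Total counts were 13672589 to 16710097 in 11 libraries and 22152239 to 23948628 in the other 3, which are control 6, control 7 and DC371739 7. The labels give no batch that sets these 3 apart. Each member's comparison is therefore given over all libraries, with a term for the 3 deeper libraries, and over the 11 alone. For other genes that are named, the further fits are given where they change a call. Albumin, the main hepatocyte product, took 9.26 to 11.04% of counts. The 7 members together took 0.928 to 2.03%, with a median of 1.51%, and 764 counts was the lowest of any member in any library, so counting error was small beside the spread between libraries.

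Levels of different genes were compared as FPKM, the count scaled by exon length and by the library's scaled total. Hp, which binds free haemoglobin, was the highest, at 7762 ± 1770 FPKM in control and 8509 ± 1402 in DC371739 liver (mean ± SD, n = 7 each, as elsewhere). Hpx, which binds free haem, followed at 3645 ± 795 and 4582 ± 831 FPKM. Itih3 stood at 920 ± 168 and 955 ± 122 FPKM, and Itih4 at 456 ± 105 and 532 ± 117 FPKM. The pentraxin Crp had 427 ± 131 and 527 ± 155 FPKM. Lbp had 128 ± 39.0 and 177 ± 46.8 FPKM, and the pentraxin Apcs 78.2 ± 28.9 and 87.1 ± 22.4 FPKM. Each gene was above the next in 14 of 14 libraries except for Itih4 and Crp, where Itih4 was the higher in 8 of 14, so that these neighbours were not separated beyond their spread. Lbp and Apcs kept their order within each library although their ranges over libraries overlapped.

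**Figure D1:**
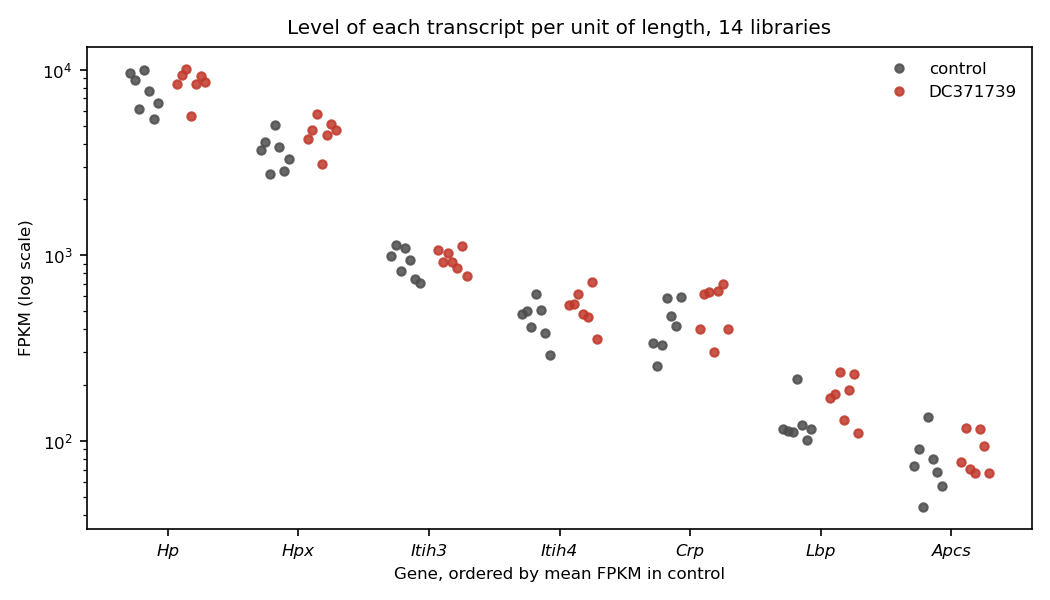
Level of each measured member per exon length, in FPKM on a log axis, with 1 point per library (7 control in grey, 7 DC371739 in red). Hp and Hpx lie above Itih3 in every library, Itih4 and Crp share a range, and Lbp and Apcs are lowest.

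None of the 7 members passed the test between DC371739 and control liver, by edgeR's quasi-likelihood test with Benjamini-Hochberg adjustment over all 12166 genes. That test called 1.85% of all genes (151 higher and 74 lower with DC371739). With a term for the deeper libraries it called 12.3% of genes, and over the 11 other libraries 21.5%, and again 0 members each time. At an unadjusted p under 0.05 the count of members was 2 (Hpx and Lbp), 2 and 1 in these fits, and that of all genes 2476, 3830 and 4483. All 7 members had a log2 fold change above 0, with a median of 0.22, beside 46.6% of all genes above 0 and a median of -0.02. The members' median was 0.14 with the library term and 0.16 over 11 libraries, while the median of all genes was -0.00 and 0.01. The groups overlapped for each of the 7, whereas they did not overlap for 0.699% of all genes.

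**Figure D2:**
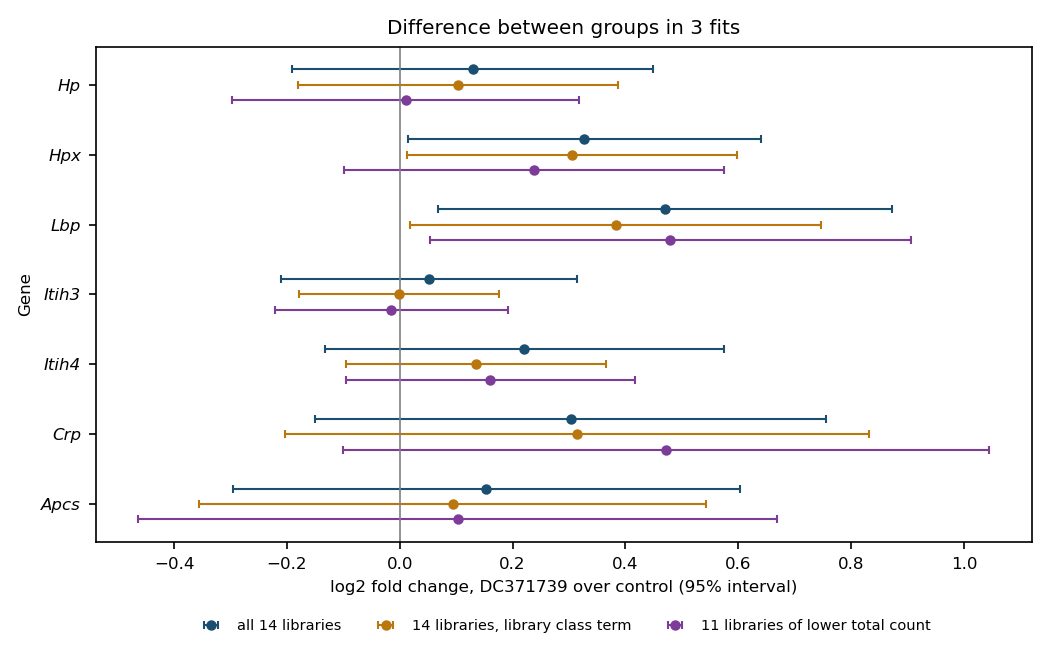
Log2 fold change of each member, DC371739 over control, as a point with its 95% interval, under 3 edgeR fits: all 14 libraries, all 14 with a term for the 3 deeper libraries, and the 11 other libraries. Only the intervals of Hpx and Lbp leave 0 in the fit over all libraries, before adjustment over genes.

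Hp and Hpx form the pair of scavengers for haemoglobin and haem. Hp, identifier ENSMAUG00000019294, lies on scaffold KB708164.1 at 2260463 to 2263161, minus strand, in the coordinates of the count table (the sources used here do not name the build). Within a gene, levels are given as CPM, the count over the library's TMM-scaled total, multiplied by 1e+06. Hp had 4316, 6331 and 8149 CPM in control (lowest, median, highest) and 4652, 6854 and 8215 CPM in DC371739 liver. The extremes of both groups lay close together: DC371739 3, control 4 and control 1 were highest, and control 6 and DC371739 4 lowest. Mean Hp was 6329 ± 1478 CPM in control and 6922 ± 1132 in DC371739 liver, a log2 fold change of 0.13 (SE 0.15, 95% interval -0.19 to 0.45, edgeR adjusted p = 0.674). It was 0.10 with the library term (edgeR adjusted p = 0.627) and 0.01 over the 11 libraries (adjusted p = 0.968).

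Hpx (ENSMAUG00000015159, scaffold KB708397.1, 377869 to 384685, plus strand) had 3230, 4362 and 5957 CPM in control and 3647, 5390 and 6773 CPM in DC371739 liver (lowest, median, highest). In 6 of 7 DC371739 libraries it was above the control median, and DC371739 3 and DC371739 6 were above the highest control. Its mean was 4267 ± 953 CPM in control and 5352 ± 962 CPM in DC371739 liver. The log2 fold change was 0.33 (SE 0.15, 95% interval 0.01 to 0.64), which did not pass (edgeR adjusted p = 0.225). It was 0.31 with the library term (adjusted p = 0.143) and 0.24 over 11 libraries (adjusted p = 0.292). Hpx passed in 1 other setting, the library term without DC371739 4 (log2 fold change 0.38, edgeR adjusted p = 0.0488). That setting called 728 genes higher and 784 lower of 12231 tested.

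Lbp carries bacterial lipopolysaccharide to CD14 and TLR4. It is ENSMAUG00000006738, on scaffold KB708260.1 at 4931376 to 4954313, minus strand, and had the largest fold change of the 7 members. Its level was 142, 163 and 308 CPM in control and 153, 255 and 336 CPM in DC371739 liver (lowest, median, highest). Control 4 stood apart at 308 CPM, with the next control at 175 CPM. Of the DC371739 libraries, 6 of 7 were above the control median and above every control but control 4. DC371739 7 was the exception, at 153 CPM.

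Mean Lbp was 182 ± 56.3 CPM in control and 252 ± 67.3 CPM in DC371739 liver, a log2 fold change of 0.47 (SE 0.19, 95% interval 0.07 to 0.87). It did not pass over all libraries (edgeR adjusted p = 0.178), with the library term (0.38, adjusted p = 0.142) or over the 11 libraries (0.48, adjusted p = 0.0980). In edgeR the call turned on control 4: without it the log2 fold change was 0.65 (edgeR adjusted p = 0.0491), and with the library term as well 0.56 (adjusted p = 0.0239). Of 12241 genes tested, the fit without control 4 called 160 higher and 66 lower, and with the library term as well 680 and 807. limma-voom with sample quality weights, where a library's weight is estimated over all genes, called Lbp alone of the members (0.53, adjusted p = 0.0284). It called 22.4% of all genes, and which libraries it weighted down was not examined. DESeq2, which called 6.92% of all genes, did not call it (0.47, adjusted p = 0.124). In the authors' deposited table Lbp had a log2 fold change of 0.47 and an adjusted p of 0.177, and 0 of the 7 members were under 0.05.

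**Figure D3:**
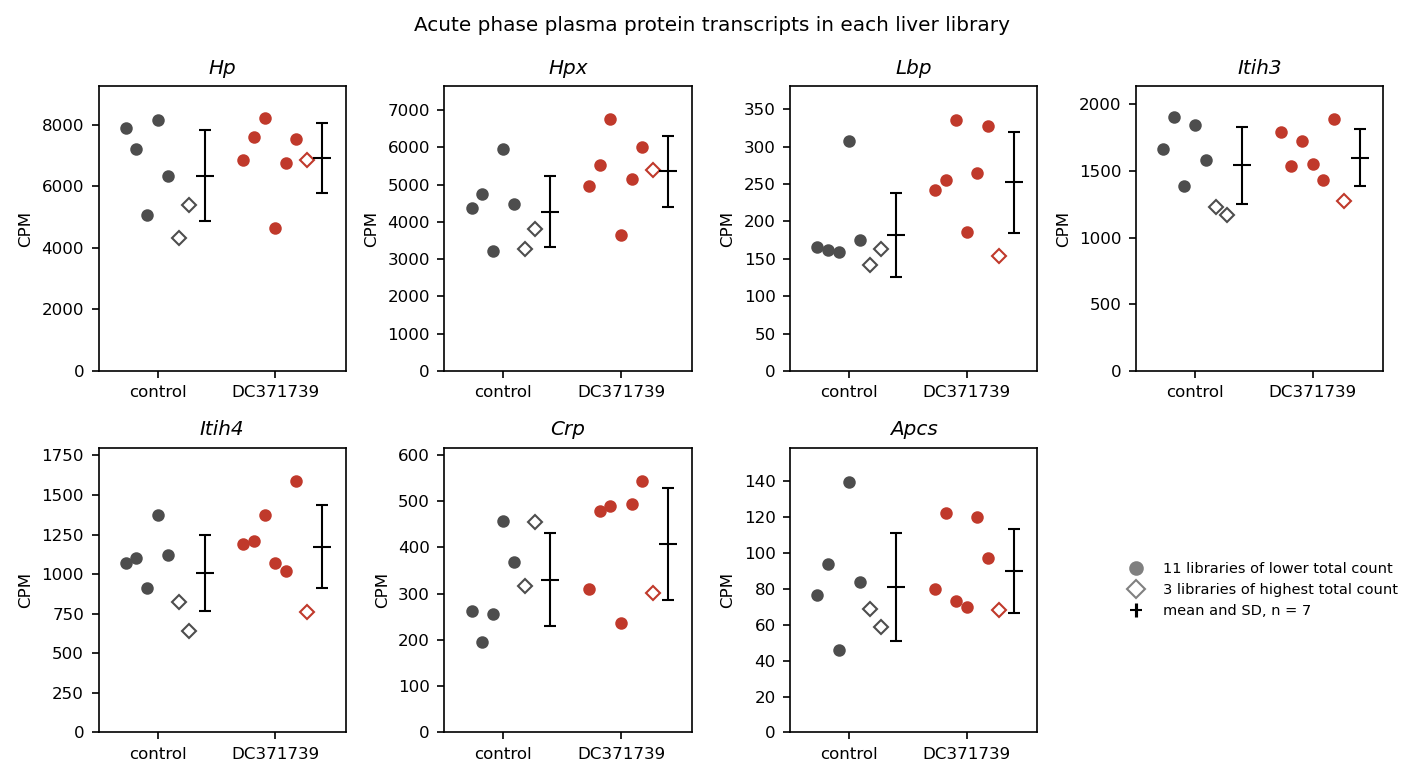
CPM of each member in each library, with points for libraries (7 control, 7 DC371739; the 3 deeper libraries marked) and the group mean with its SD, on linear axes from 0. The groups overlap in all panels, and control 4 stands apart from the other controls for Lbp.

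Itih3 and Itih4 are secreted heavy chains of the inter-alpha-trypsin inhibitor family. Heavy chains such as that of Itih3 are transferred to hyaluronan and stabilise the matrix, and Itih4 circulates without the light chain bikunin. Both lie on scaffold KB708313.1, Itih4 (ENSMAUG00000019835) at 562057 to 578643 on the plus strand and Itih3 (ENSMAUG00000016750) at 586288 to 601008 on the minus strand, 7644 bases apart. Itih3 had 1170, 1584 and 1905 CPM in control and 1272, 1550 and 1887 CPM in DC371739 liver (lowest, median, highest). It varied least of the members, 1.63-fold from the lowest to the highest library. Its means were 1541 ± 289 and 1598 ± 215 CPM, and the log2 fold change was 0.05 (SE 0.12, 95% interval -0.21 to 0.31, edgeR adjusted p = 0.854). The sign was not stable: it was -0.00 with the library term (adjusted p = 0.994) and -0.01 over 11 libraries (adjusted p = 0.928).

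Itih4 had 638, 1071 and 1375 CPM in control and 763, 1189 and 1588 CPM in DC371739 liver (lowest, median, highest). DC371739 6 was the highest library and control 7 the lowest, with the groups overlapping over most of their range. The means were 1007 ± 238 and 1173 ± 263 CPM. The Itih4 log2 fold change was 0.22 (SE 0.17, 95% interval -0.13 to 0.57, edgeR adjusted p = 0.480), 0.14 with the library term (adjusted p = 0.414) and 0.16 over 11 libraries (adjusted p = 0.357).

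Itih3 and Itih4 were the 2 members that differed between the 3 deeper libraries and the other 11 in the fit with both terms, a contrast chosen after the values were seen. The deeper libraries were lower by a log2 difference of -0.44 for Itih3 (SE 0.11, edgeR adjusted p = 0.00251) and -0.65 for Itih4 (SE 0.14, adjusted p = 0.00115). Since 46.4% of all genes passed in that contrast, 2 of 7 members is no more than the background. All 3 deeper libraries were below the other 11 for Itih3, at 1170 to 1272 CPM against 1387 to 1905 CPM. The same held for Itih4, at 638 to 823 CPM against 914 to 1588 CPM. The share of all genes separated in this way was not counted. The other members gave values between -0.51 (Lbp, adjusted p = 0.0638) and 0.05 (Crp, adjusted p = 0.902).

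Crp and Apcs are pentraxins, ring-shaped proteins that bind phosphocholine and other ligands on microbes and damaged cells. In the Syrian hamster the Apcs product is also known as female protein, because its level depends on sex. The genes share scaffold KB708207.1, Apcs (ENSMAUG00000011083) at 9008644 to 9010083 on the plus strand and Crp (ENSMAUG00000012308) at 9179765 to 9180986 on the minus strand, 169681 bases apart. Crp had 196, 316 and 456 CPM in control and 236, 478 and 543 CPM in DC371739 liver (lowest, median, highest). In 4 DC371739 libraries (2, 3, 5 and 6) Crp was above the highest control, and in the other 3 it lay inside the control range. Its means were 330 ± 101 and 408 ± 121 CPM, with a log2 fold change of 0.30 (SE 0.21, 95% interval -0.15 to 0.76, edgeR adjusted p = 0.444). It was 0.31 with the library term (adjusted p = 0.390) and 0.47 over 11 libraries (adjusted p = 0.215).

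Apcs had 45.8, 76.6 and 139.6 CPM in control and 68.1, 79.8 and 122 CPM in DC371739 liver (lowest, median, highest). From the lowest to the highest library it had the widest range of the members, 3.05-fold, and both of these libraries were controls (3 and 4). The means were 81.0 ± 30.3 and 90.1 ± 23.3 CPM, and the Apcs log2 fold change was 0.15 (SE 0.21, 95% interval -0.30 to 0.60, edgeR adjusted p = 0.733). It was 0.09 with the library term (adjusted p = 0.790) and 0.10 over 11 libraries (adjusted p = 0.803). The sources used here do not give the animals' sex, and its part in the spread of Apcs was not tested.

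The members had larger SDs within groups than the median gene of at least the abundance of Apcs. The SD of log2 CPM within groups was 0.24 for Itih3 to 0.46 for Crp, with a median of 0.35 over the 7 members, beside a median of 0.21 over the 1480 tested genes at least as abundant as Apcs. This is a description with no test. Several libraries were high or low for most of the members at once. Control 4 was among the top 5 of 14 libraries for 7 of 7 members, as was DC371739 6, and DC371739 2 and DC371739 3 were for 6 of 7. Control 3 and control 6 were each among the bottom 3 for 5 of 7 members, DC371739 7 for 4, and control 7 and DC371739 4 for 3. The highest library was a DC371739 library for 5 members and a control for Itih3 and Apcs. The lowest library was a control for each of the 7. It was a deeper library for Hp and Lbp (control 6) and for Itih3 and Itih4 (control 7). For Hpx and Apcs it was control 3, and for Crp control 2. The share of all genes with their highest or lowest library in either group was not counted. Nor was the share of all genes for which each library is among the top 5 or the bottom 3.

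**Figure D4:**
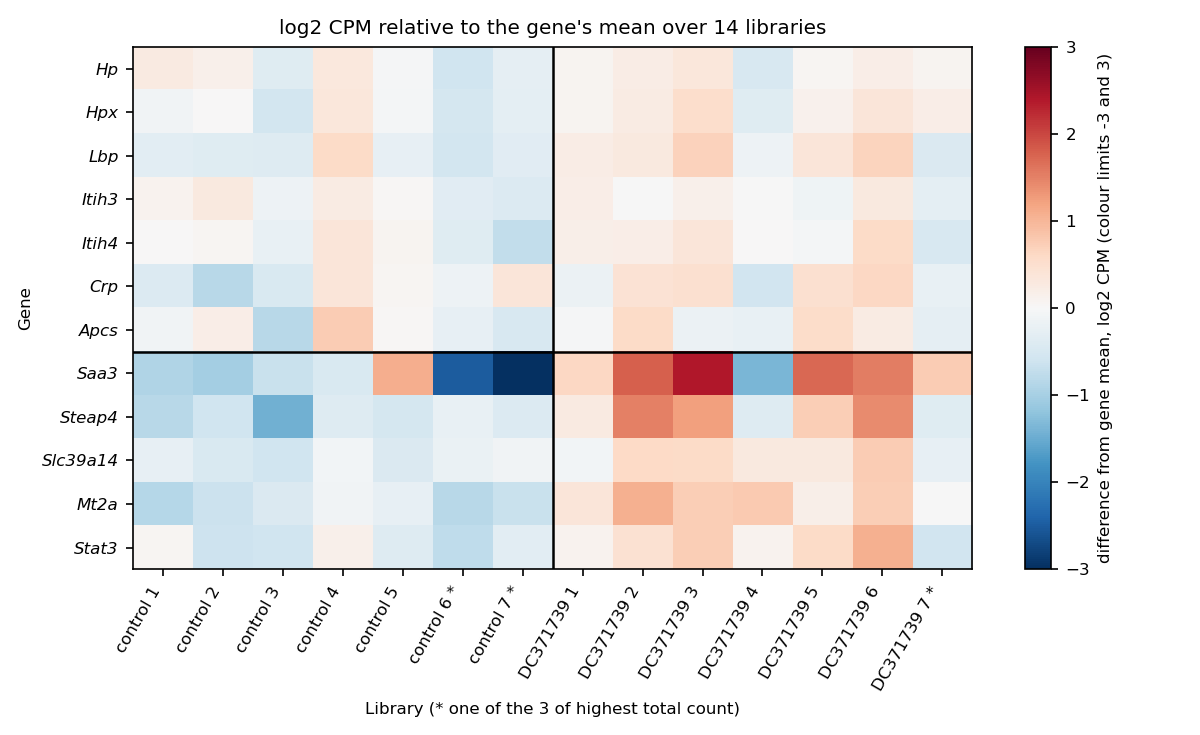
Log2 CPM of each member, and of Saa3, Steap4, Slc39a14, Mt2a and Stat3, in each of 14 libraries relative to the gene's mean over libraries, on a colour scale from -3 to 3. Control 4 and DC371739 6 are above the mean for most members and control 3 and control 6 below it; of the genes drawn Saa3 varies most, from -3.02 (just past the scale) to 2.41.

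Ratios between members remove what is common to a library. All 21 pairs were compared by an exact two-sided permutation test over samples, with Benjamini-Hochberg adjustment over the 21, a set chosen after the members' values were seen. None of the 21 passed. The smallest p belonged to the ratio of Hpx to Hp counts, which was 0.55, 0.71 and 0.76 in control and 0.73, 0.78 and 0.82 in DC371739 liver (lowest, median, highest). Each of the 7 DC371739 libraries was above the control median, and 5 were above every control. The mean log2 Hpx to Hp ratio was -0.56 ± 0.15 in control and -0.37 ± 0.07 in DC371739 liver, a difference of 0.19 (exact permutation p = 0.00466, adjusted over 21 pairs p = 0.0979). Over the 11 libraries the difference was 0.23 (exact permutation p = 0.00649, adjusted p = 0.114). Leaving out each library in turn gave unadjusted exact permutation p-values from 0.00175 to 0.0117.

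The pairs of neighbouring genes did not separate the groups. The ratio of Itih4 to Itih3 was 0.55, 0.66 and 0.74 in control and 0.60, 0.71 and 0.84 in DC371739 liver (lowest, median, highest), a log2 difference of 0.16 (exact permutation p = 0.0909, adjusted p = 0.347). The ratio of Apcs to Crp differed by -0.11 on the log2 scale (exact permutation p = 0.696) and was most variable among controls, 0.13 to 0.48. The ratio of Itih3 to Lbp had a log2 difference of -0.40 (exact permutation p = 0.0280, adjusted p = 0.294).

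**Figure D5:**
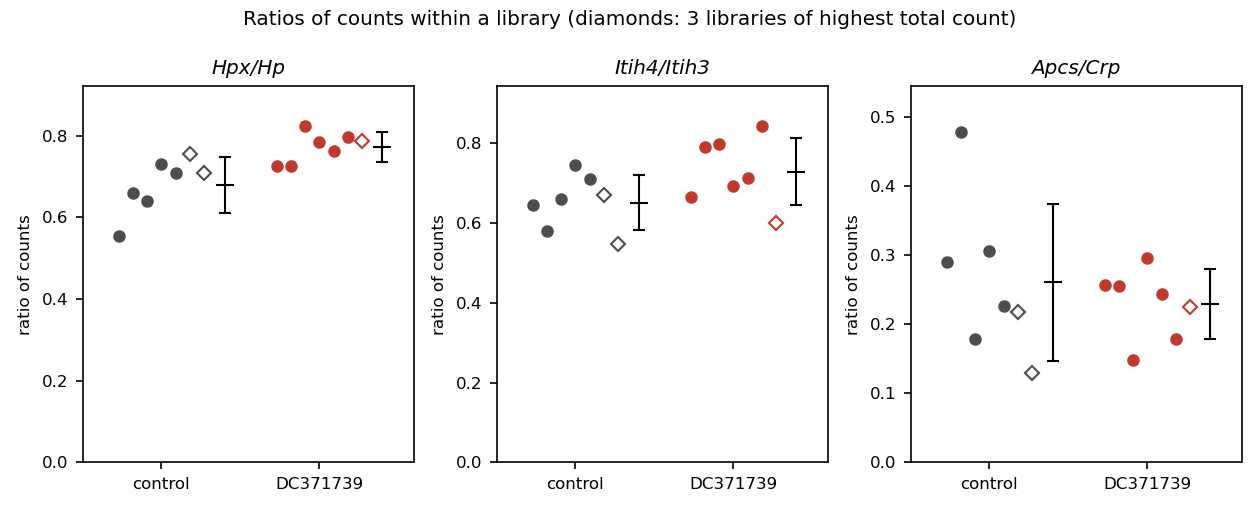
Ratio of counts between members in each library (points; 7 control, 7 DC371739; diamonds for the 3 deeper libraries) with the group mean and SD, for Hpx to Hp, Itih4 to Itih3 and Apcs to Crp, on linear axes. For Hpx to Hp, 5 of 7 DC371739 libraries lie above all controls, and the other ratios overlap over most of their range.

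Of the paralogs of the members that were looked up, from the inter-alpha-trypsin inhibitor, serum amyloid A and alpha-1-acid glycoprotein families, Itih2, Itih5 and Saa3 had a row. Itih2, another heavy chain of the inhibitor complex, had 727 ± 137 CPM in control and 788 ± 63.9 CPM in DC371739 liver (log2 fold change 0.12, edgeR adjusted p = 0.591; over 11 libraries 0.24, adjusted p = 0.0295). Itih5, a further family member, was near the low end of measured levels at 2.80 ± 0.69 and 3.22 ± 0.62 CPM (0.20, adjusted p = 0.590). Ambp, which encodes the light chain bikunin, had a log2 fold change of -0.07 (adjusted p = 0.705). Of these 3 family genes and partners 0 passed over all libraries. Saa3, an inducible serum amyloid A made by hepatocytes, macrophages and other cells, had 9.45, 41.6 and 164 CPM in control and 29.98, 226 and 412 CPM in DC371739 liver (lowest, median, highest). DC371739 2, 3, 5 and 6 were above every control, and DC371739 4 lay below the control median. Control 5 stood apart at 164 CPM, above the other 6 controls and above DC371739 1, 4 and 7.

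Mean Saa3 was 53.1 ± 51.7 CPM in control and 206 ± 125 CPM in DC371739 liver, a log2 fold change of 1.95 (SE 0.57, 95% interval 0.74 to 3.17), and it did not pass (edgeR adjusted p = 0.0756). It passed with the library term (2.02, adjusted p = 0.0398), without control 5 (2.57, adjusted p = 0.0424), without DC371739 4 (2.15, adjusted p = 0.0479) and without DC371739 7 (2.04, adjusted p = 0.0449). It also passed with DESeq2 (1.96, adjusted p = 0.0336) and with limma-voom and quality weights (1.74, adjusted p = 0.0488). Over the 11 libraries it did not (1.65, adjusted p = 0.0970). Of 40 other settings Saa3 passed in 9. Leaving out each library in turn, it passed in 3 of 14 fits (edgeR adjusted p up to 0.162). With the library term as well it passed in 3 of 14 (adjusted p up to 0.0809). Reads shared between near-identical serum amyloid A genes cannot be told apart in these counts.

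Among 27 other positive acute phase proteins, a list chosen with results of these data known, 16 had a row under their symbol. Of the 16, 3 rose, 0 fell and 13 did not pass (1.85% of all genes were called), with a median log2 fold change of 0.06. The list is not confined to secreted plasma proteins, and the 3 that rose, described next, are not secreted ones. Mt2a, a zinc-binding metallothionein, rose from 172 ± 35.5 to 372 ± 95.8 CPM (log2 fold change 1.11, SE 0.17, edgeR adjusted p = 0.0101), its groups did not overlap, and it passed without any 1 library. Steap4, a metalloreductase, rose from 85.8 ± 20.6 to 226 ± 113 CPM (1.40, SE 0.29, edgeR adjusted p = 0.0291). The DC371739 libraries 4 and 7 lay within the Steap4 range of the controls. Slc39a14, a zinc and iron importer, rose from 76.9 ± 10.3 to 120 ± 29.2 CPM (0.64, SE 0.15, edgeR adjusted p = 0.0382). Both Steap4 and Slc39a14 lost their call without any 1 of controls 1, 2, 3 and 5 or DC371739 2, 3, 5 and 6, with adjusted p up to 0.0768 and 0.0928. With the library term 4 of the 16 were higher and 0 lower, where 12.3% of all genes were called. Over the 11 libraries, where 21.5% were, 5 were higher and 1 lower, and of these C3, Il1rn and Mbl2, named after their values were seen, had log2 fold changes of 0.63, 0.46 and -0.45.

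Of 11 measured negative acute phase proteins, which decline in the response, 0 passed under any of the 3 fits. All 11 log2 fold changes were below 0, as were 53.4% of those of all genes, and their median was -0.13. Apoa2, an apolipoprotein of high-density lipoprotein, had 2629 ± 449 CPM in control and 2027 ± 434 CPM in DC371739 liver (-0.38, edgeR adjusted p = 0.160). It passed in 4 of 40 other settings, among them limma-voom with quality weights (-0.43, limma-voom adjusted p = 0.0259), which called 22.4% of all genes. The thyroid hormone carrier Ttr had a log2 fold change of -0.23 (adjusted p = 0.258), Igf1 of -0.14 and the vitamin D carrier Gc of -0.13.

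Of the acute phase cytokines, 4 of 10 listed had a row, and none passed. Tnf averaged 1.63 ± 0.57 CPM in control and 3.44 ± 1.29 CPM in DC371739 liver, with a log2 fold change of 1.08 (edgeR adjusted p = 0.0609; with the library term 0.88, adjusted p = 0.0181; over 11 libraries 1.05, adjusted p = 0.00538). The values for Osm, Il1b and Il1a were 0.65, 0.43 and 0.11. Il6 was not analysed here. Of the cytokine receptors and their signalling genes 0 of 14 passed, with the library term 1 of 14 (Traf6), and 4 of 14 (Il6ra, Tnfrsf1a, Tnfrsf1b and Traf6) over the 11 libraries, beside the 21.5% of all genes called there. Of the transcription factors 0 of 8 passed. Stat3, the factor that interleukin-6 activates, had 47.2 ± 11.7 CPM in control and 79.3 ± 27.4 CPM in DC371739 liver (0.75, edgeR adjusted p = 0.0681). It passed over 11 libraries (0.80, adjusted p = 0.0177), with DESeq2 (adjusted p = 0.0154) and with limma-voom (adjusted p = 0.00671), but not with the library term. Cebpa had a log2 fold change of -0.65 (adjusted p = 0.0839). It passed over 11 libraries (-0.86, adjusted p = 0.00930), with DESeq2 (adjusted p = 0.0300) and with limma-voom (adjusted p = 0.00217), but not with the library term. Hnf4a had 0.48 (adjusted p = 0.0795) and passed over 11 libraries (0.52, adjusted p = 0.00504), with the library term (0.40, adjusted p = 0.0359), with DESeq2 (adjusted p = 0.0284) and with limma-voom (adjusted p = 0.00520). Nfkb2 had 0.37 and passed in none of the 3 edgeR fits. Over the 11 libraries 2 of the 8 factors were higher and 1 lower.

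Receptors and partners that take up or bind the members were also listed, and 0 of 9 measured passed over all libraries. With the library term 0 of 9 passed. Over the 11 libraries 2 were higher and 1 lower, where 21.5% of all genes were called. Of the higher ones only Lrp1 is among the genes named. Lrp1, the receptor for haem bound to hemopexin, had 568 ± 181 CPM in control and 906 ± 346 CPM in DC371739 liver (log2 fold change 0.67, edgeR adjusted p = 0.177). Its 3 deeper libraries were lowest, at 297 to 391 CPM against 563 to 1297 CPM in the others, a pattern not counted over all genes. Over the 11 libraries the Lrp1 log2 fold change was 0.62 (adjusted p = 0.0152). Hmox1, the haem-degrading enzyme, had a log2 fold change of -0.34 (adjusted p = 0.208) and over the 11 libraries of -0.56 (adjusted p = 0.00385). Cd14, the receptor that Lbp loads, had 0.37 (adjusted p = 0.123), and Slc22a17, a lipocalin 2 receptor, -0.28 (adjusted p = 0.375). Cd14 passed in 2 of 40 other settings, among them limma-voom with quality weights (0.35, limma-voom adjusted p = 0.0423), which called 22.4% of all genes.

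Markers of other cells were listed because Saa3, Tnf and some receptors are also made outside hepatocytes. Of 10 measured macrophage markers 3 rose, Laptm5 by 0.70, Ctss by 0.77 and Mpeg1 by 0.80 on the log2 scale (edgeR adjusted p = 0.0101, 0.0155 and 0.0236), and 0 fell, beside 1.85% of all genes called. With the library term 8 of 10 were higher (12.3% of all genes called) and over the 11 libraries 6 of 10 (21.5%). All 10 had a log2 fold change above 0, with a median of 0.53. The 10 summed to 687 to 994 CPM in control and 787 to 1202 CPM in DC371739 liver, and none had a mean under 1 CPM. Of 4 measured neutrophil markers 0 passed over all libraries and 1 in each of the other fits, and they summed to 10.6 to 19.1 CPM in control and 20.4 to 29.9 CPM in DC371739 liver. Mpeg1 lost its call without control 3 or 5 or DC371739 2, 3, 5 or 6, with adjusted p up to 0.0674. Laptm5 and Ctss kept theirs without any 1 library. With a replicate block all 3 lost their call (edgeR adjusted p = 0.0574 for Laptm5, 0.0632 for Ctss and 0.0669 for Mpeg1). The part of these cells in the values of Saa3, Tnf and the members was not tested. Of 10 hepatocyte markers 0 passed over all libraries, 0 with the library term and 1 over the 11 libraries, and they summed to 107114 to 143123 CPM in control and 107168 to 128802 CPM in DC371739 liver.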

How the data were processed

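Liver RNA of 14 hamster samples was sequenced, 7 per group, and samples were grouped by the treatment label. Per the submitters' processing notes, the tools included edgeR, featureCounts 2.0.0 and HISAT2 2.2.1; settings, genome build, annotation and strandedness are not given in the sources used. The authors deposited a table of whole-number counts per Ensembl gene, with exon coordinates and summed exon length per the file headers (22283 genes). A second deposited table gives 10023 genes with a symbol, the authors' FPKM in each library and the authors' test as log2 fold change, p-value and its adjusted value. From the values, FPKM is the count over exon length and over a scale factor of the library (largest relative deviation 1.3e-07).

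The test on counts used edgeR 4.0.16 under R 4.3.3 (TMM scaling, default filter with a minimum count of 10, robust quasi-likelihood F-test, group as the only term), and Benjamini-Hochberg adjusted p under 0.05 was called. Standard errors and 95% intervals came from the fold change and its F statistic. Total counts per library set the counting precision. Alternatives were a term for the 3 deeper libraries, the 11 others alone, other scalings and filters, DESeq2 1.42.0 on the genes of the edgeR filter, limma 3.58.1 on counts and FPKM, a replicate block, and each library left out in turn. Only the edgeR fit with group as the only term was tested on simulated counts, which held no difference between deeper and other libraries.

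The members and gene lists were chosen with earlier results of these data known. The members, the measured ones of the paralogs looked up and, of each of the other lists, genes that passed and up to 4 of smallest p were named. Of cell markers only those that passed are named. The contrast of deeper libraries and the 21 ratios were chosen after the values were seen. Lists of lymphocyte, endothelial, stellate, cholangiocyte, adipocyte and erythroid markers gave 0 calls with the group as the only term. With the library term 1 lymphocyte, 2 endothelial and 1 stellate marker were called, and over the 11 libraries 1, 3 and 1, all higher. Protein and promoter sequences were not used here.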

Additional observations from a re-analysis of the deposited data

Results flagged for a closer look

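Within groups of 7 libraries, the highest or lowest value was compared with its nearest neighbour for 12 genes in both groups, and 3 of 24 groups had a library set apart by Dixon's criterion, which chance gives in about 1 of 20. For Hp it was DC371739 4, at 4652 CPM with the next DC371739 library at 6759 CPM. For Lbp it was control 4, at 308 CPM with the next control at 175 CPM. For Saa3 it was control 5, at 164 CPM with the next control at 56.8 CPM.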

How the results depend on the processing

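Over 40 other settings, the 7 members gave 280 fold changes, of which 264 kept direction and side of the threshold, 4 passed it (Lbp 3, Hpx 1) and 12 changed sign. The sign changed for Itih3 (from 0.05) to -0.0011 with the library term, -0.015 over 11 libraries and -0.0026 without control 7, and with the library term in 8 fits that left out 1 library (Itih3 ranged from -0.047 to 0.109 over libraries left out). It changed for Apcs to -0.035 with the library term without control 3 (range to 0.34), and for Il1a to -0.037 without DC371739 5 and -0.0027 without DC371739 7 (range to 0.43). The cause was not tested. Counts over all genes moved far more: from 151 higher and 74 lower to 684 and 815 with the library term, 1353 and 1282 over 11 libraries, 509 and 333 with DESeq2, 1406 and 1321 with limma-voom and quality weights (1 member called), 36 lower without scaling and 46 lower without an expression filter. Leaving out each library in turn gave 18 to 615 higher, 7 to 454 lower and 0 to 1 members; with the library term as well, 265 to 1382 higher, 328 to 1359 lower and 0 to 1 members. With a replicate block 6 genes were higher and 2 lower, and 0 members passed. Steap4, Slc39a14, Laptm5, Ctss and Mpeg1 lost their call there (edgeR adjusted p from 0.0574 to 0.0934), and Mt2a kept it. The labels do not say whether equal numbers pair the samples. Same-numbered libraries correlated by -0.131 to 0.548, over 0.1 in 2 of 7 pairs, and 1 of 7 controls correlated best with its own number. The highest value was that of control 7 and DC371739 7, which are both deeper libraries. These correlations show no general pairing by number, but they cannot decide whether samples were paired. The members' intervals (-0.30 to 0.60 for Apcs on the log2 scale) reflect the spread between the 7 libraries of a group, which includes the deeper libraries. The cause of that spread was not tested.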
